A study of Mus musculus with 16 samples.

Results

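Hippocampal RNA of newborn mice (postnatal day 1, P1), Mef2c-het or WT, was compared on 8 arrays, chosen from the 16 of the series by the labels for age and genotype. The groups are 4 Mef2c-het and 4 WT arrays, and the labels write KO for the Mef2c-het mice. Mef2c-het mice have a conventional Mef2c allele that lacks exon 2 beside a WT allele, on a C57BL/6J background. The deletion is not limited to a cell type or an age, so that every cell of the hippocampus carries it from conception. The labels give neither treatment, sex, litter nor chip, and do not say whether an array holds a single newborn. Whether the newborns of the 2 groups were littermates is not given in the labels. The p-values below therefore measure the spread between these arrays. Gene expression was read on Illumina MouseRef-8 v2 beadchips, where the signal of a probe is the mean brightness of its beads.

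MEF2C is a transcription factor that binds AT-rich sequences and is held inactive by class IIa histone deacetylases until calcium and p38 or ERK5 signalling release it. In the brain it is made by neurons, where it takes part in differentiation and in the control of synapse number, and by microglia, the resident macrophages. Around birth, microglia engulf dying cells and debris, divide, and in part take a state marked by Spp1, Gpnmb and other genes of lipid and matrix handling.

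Of the 25697 probes on the array, 13566 had a detection p (the share of negative control beads that are as bright) under 0.05 on at least 4 of the 8 arrays and were tested. On single arrays 12830 to 14150 probes were detected. The median probe had 37 to 39 beads, and their standard error was 3.38% to 4.05% of the signal. Arrays were quantile normalized on the log2 scale, and Pearson's r between a pair of arrays over all probes lay between 0.986 and 0.997. WT replicate 8 and Mef2c-het replicate 8 stood apart from the other 6 arrays, and the first principal component, with 53.8% of the variance, separated them. The groups are therefore balanced over these clusters. By Xist and Y-linked probes, 3 WT arrays read as female and 1 as male, and 2 Mef2c-het arrays as female and 2 as male. Of 20 marker genes of the hippocampal subfields, 14 were tested. Prox1, a marker of the dentate gyrus, was at 10.18 ± 0.28 (log2 signal, SD, n = 4) in WT and at 10.22 ± 0.26 in Mef2c-het mice, whereas Calb1 was not detected on any array. Ttr, which is made by the choroid plexus, ran from 10.60 to 14.86 over the 8 arrays, with low and high arrays in both groups.

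Mef2c itself did not differ between the groups beyond the spread of the arrays. Its probe ILMN_2732465 had log2 signals of 9.44, 9.54, 9.62 and 9.67 on WT replicates 1, 4, 5 and 8, and of 9.19, 9.60, 9.68 and 9.78 on Mef2c-het replicates 1, 2, 4 and 8. The log2 fold change (FC), which is Mef2c-het over WT throughout, was -0.01, with a standard error (SE) of 0.12 and an exact permutation p of 0.971. All permutation tests were exact and two-sided. Probe ILMN_2887992 read 8.34, 8.35, 8.50 and 8.51 in WT and 8.22, 8.47, 8.44 and 8.82 in Mef2c-het mice, with a log2 FC of 0.07 (SE 0.12, exact permutation p = 0.714). On both probes the lowest array was Mef2c-het replicate 1 and the highest was Mef2c-het replicate 8, and the sign of both fold changes turned when single arrays were left out. The remaining probe was not detected on any array. Probe positions are not given in the sources used here, and a probe outside the deleted exon would not show the deletion, so Mef2c gives no check of the genotype labels at this age.

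Most differences were small. Over the 13566 probes the lowest log2 FC was -1.76, the highest 1.11 and the median 0.00, and the 5th and 95th percentiles were -0.14 and 0.14. Only 8 probes differed by more than 0.5 in size. With limma's test, 0 probes passed an adjusted p of 0.05 (Benjamini-Hochberg), and the same count of 0 came from an equal-variance test of single probes, with 328 of them under 0.05 before adjustment. Without adjustment, 220 probes had a limma p under 0.05, which is 1.62% of those tested, 138 of them (1.02%) lower and 82 (0.604%) higher in Mef2c-het mice. If the p-values of all tested probes were spread evenly between 0 and 1, 678 would lie under 0.05, so the count of 220 is below that number. The number was 108 without WT replicate 4, 380 without WT replicate 5 and 444 without WT replicate 8, and 75 after scaling to a common median in place of quantile normalization. On 175 probes, 1.29% of those tested, every Mef2c-het array lay on one side of every WT array, 99 of them (0.73%) lower and 76 (0.56%) higher. For such a probe the exact permutation test gives p = 0.0286, the smallest that 4 arrays against 4 allow.

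Among the probes without overlap, the 12 lower ones of smallest p belong to 11 genes, Ccl9, Ly86, Spp1, Gpr34, Cd180, Cd9, Cort, Cryba4, Crybb1, Ptpa and Siah1a. Their log2 FCs lay between -1.76 and -0.24. Ly86 and Gpr34 are on the list of core microglia genes described below, Spp1 and Cd9 on that of the microglial state around birth, Ccl9 on that of chemokines, and the other 6 genes are on none of the lists.

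**Figure D1:**
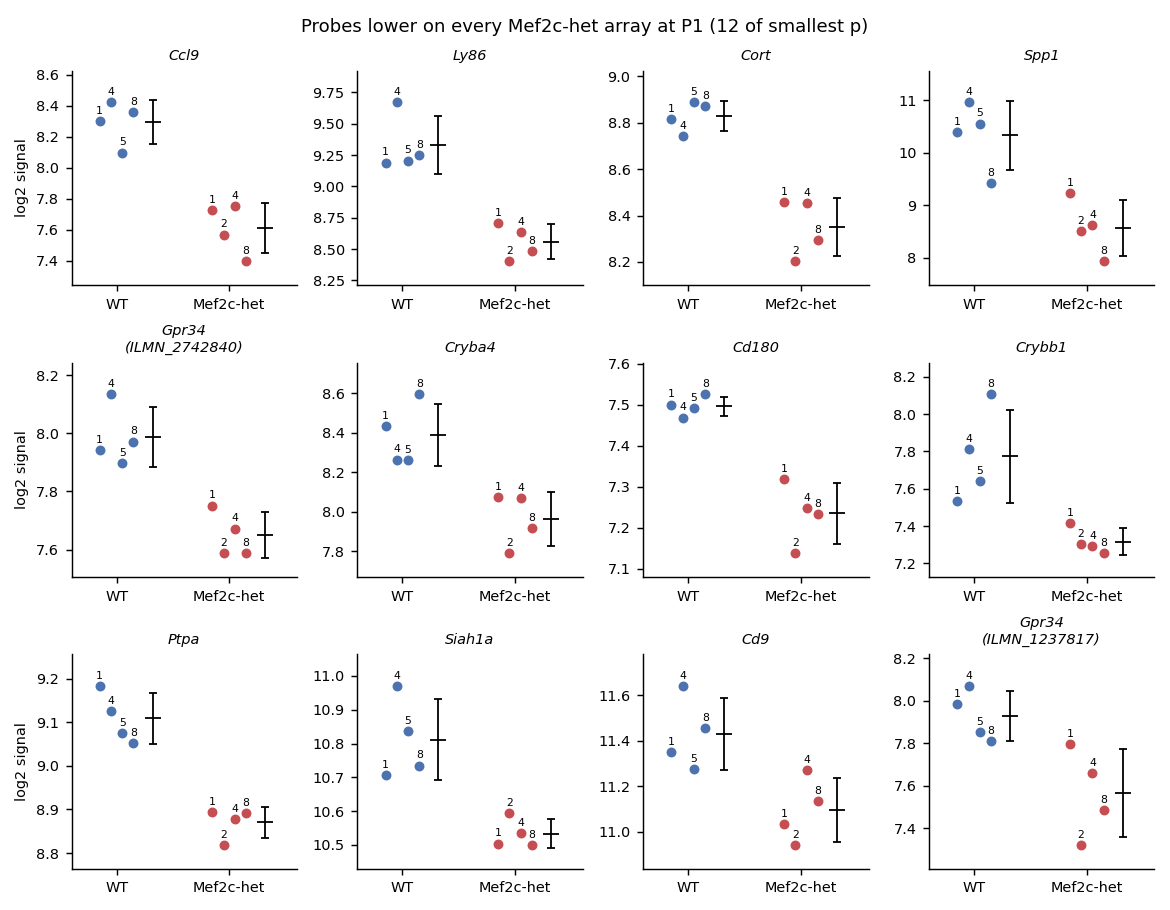
Log2 signal (vertical axes, a scale of its own in each panel) of the 12 lower probes of smallest p on the 4 WT and 4 Mef2c-het arrays at P1. Points are arrays with their replicate number, and bars show the mean and SD. In every panel the highest Mef2c-het array lies below the lowest WT array, with the narrowest gap for Cd9.

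Spp1, which encodes the secreted matrix protein osteopontin, showed the largest difference of all tested probes. Its log2 signals were 10.40, 10.96, 10.55 and 9.42 on WT replicates 1, 4, 5 and 8, and 9.23, 8.51, 8.62 and 7.94 on Mef2c-het replicates 1, 2, 4 and 8. Within each group replicate 8 was the lowest array, and WT replicate 8 at 9.42 came close to Mef2c-het replicate 1 at 9.23. The group means of 10.33 ± 0.65 and 8.58 ± 0.53 (SD, n = 4 each) differ by a log2 FC of -1.76 (SE 0.33), a signal 3.38 times higher in WT. Its adjusted p was 1.00 in limma. Across the alternatives the adjusted p of Spp1 ran from 0.000888 to 1.00, and it was under 0.05 in 3 settings, those with the replicate number as a block, with the array cluster as a block (0.00294) and in the larger cluster alone (0.0200).

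Ly86 encodes MD-1, a secreted protein that pairs with the receptor RP105, the product of Cd180. Ly86 read 9.19, 9.67, 9.21 and 9.25 in WT and 8.71, 8.40, 8.64 and 8.48 in Mef2c-het mice. WT replicate 4 stood above the other 3 WT arrays, and no array of the groups overlapped. The log2 FC was -0.77 (SE 0.12) and limma's adjusted p was 0.481, with 0.0140 to 1.00 over the alternatives. Cd180 was dim, at 7.50, 7.47, 7.49 and 7.53 in WT and 7.32, 7.14, 7.25 and 7.23 in Mef2c-het mice. It was detected on all 4 WT arrays and on 1 Mef2c-het array, and its log2 FC was -0.26 (SE 0.06). The WT arrays alone thus met the filter, which favours a lower value. Both partners were lower on each Mef2c-het array than on each WT array, for Cd180 in the direction that the filter favours.

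Ccl9, a chemokine that attracts cells bearing the receptor CCR1, read 8.30, 8.42, 8.10 and 8.36 in WT and 7.73, 7.57, 7.75 and 7.40 in Mef2c-het mice. Its log2 FC was -0.68 (SE 0.10, adjusted p = 0.481 from limma), and the adjusted p ran from 0.0107 to 1.00 over the alternatives. Of 26 listed chemokines and receptors 11 were tested. Of these, 2 (18.2%), Ccl9 and Ccl3, had an unadjusted p under 0.05, where 1.67% of all genes with a tested probe did. This list was written with earlier results of these data known, which had pointed to Ccl9. Ccl3, which encodes MIP-1 alpha, was 7.62 ± 0.16 in WT and 7.34 ± 0.13 in Mef2c-het mice (mean ± SD, n = 4 each), with overlap of the groups (log2 FC -0.28, exact permutation p = 0.0857). Ccl3 was detected on 4 WT and 2 Mef2c-het arrays, so that the WT arrays alone met the filter. Ccl4 (-0.12) and Ccl12 (0.24) had an unadjusted p above 0.05, and the receptors Ccr1 and Ccr2 were not detected on any array.

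Gpr34, a receptor for lysophosphatidylserine that marks microglia, was read by 2 probes, and both separated the groups. Probe ILMN_2742840 read 7.94, 8.13, 7.90 and 7.97 in WT and 7.75, 7.59, 7.67 and 7.59 in Mef2c-het mice, with a log2 FC of -0.34 (SE 0.07). Probe ILMN_1237817 gave -0.36 (SE 0.11). Cd9, a tetraspanin, was a bright probe with 11.43 ± 0.16 in WT and 11.09 ± 0.14 in Mef2c-het mice (mean ± SD, n = 4 each). The groups barely separated, with Mef2c-het replicate 4 at 11.27 just below WT replicate 5 at 11.28.

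Cryba4 and Crybb1 encode beta-crystallins, structural proteins of the lens, and Crybb1 is also known as a gene of newborn microglia. They are neighbours on chromosome 5 with 0 protein-coding genes between them. Crybb1 read 7.54, 7.81, 7.64 and 8.11 in WT and 7.42, 7.30, 7.29 and 7.26 in Mef2c-het mice. It was detected on 4 WT arrays and 2 Mef2c-het arrays, so that the WT arrays alone met the filter. Cryba4 read 8.43, 8.26, 8.26 and 8.59 in WT and 8.07, 7.79, 8.07 and 7.92 in Mef2c-het mice. For both genes WT replicate 8 was the highest array, unlike for Spp1. The log2 FCs were -0.46 (SE 0.12) for Crybb1 and -0.43 (SE 0.10) for Cryba4.

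Cort encodes cortistatin, a neuropeptide of interneurons related to somatostatin. It read 8.82, 8.74, 8.89 and 8.87 in WT and 8.46, 8.20, 8.45 and 8.29 in Mef2c-het mice, a log2 FC of -0.48 (SE 0.08, adjusted p = 0.547 from limma). Its second probe was lower by a similar amount (-0.40, SE 0.14), with WT replicate 4 among the Mef2c-het arrays. Sst, the somatostatin gene, chosen after its values were seen, had 0.14 (SE 0.11), a value of the opposite sign. Ptpa, an activator of the phosphatase PP2A, had a log2 FC of -0.24 (SE 0.06), and Siah1a, a ubiquitin ligase, -0.28 (SE 0.07).

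Among the 4 Mef2c-het arrays, replicate 1 was the highest on 9 of these 12 probes, and the lowest was replicate 2 on 7 and replicate 8 on 5 of them. Under a background correction (normexp), the differences of dim probes grew. Ccl9 reached -1.39, Crybb1 -1.26 and Cd180 -0.86, and 22 of 40 named probes with a difference above 0.2 grew by more than 1.5 times. All 12 lower probes kept their direction under every alternative that gave a value.

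The sequences before the transcription starts of 4 of the 11 lower genes are shown, since these genes differed in the same direction and MEF2C is a DNA-binding factor. The 4 include the 3 lower genes with a match to any searched site. For each gene the 250 bases before the first listed start are given 5′ to 3′ in the direction of the gene, from RefSeq for GRCm38.p6. Capitals mark matches, on either strand, to the TATA box (TATAAA), the AP-1 site (TGANTCA) and the site of the macrophage factor PU.1 (GAGGAAGT).
Ccl9 (chr11:83578637-83578886, minus strand): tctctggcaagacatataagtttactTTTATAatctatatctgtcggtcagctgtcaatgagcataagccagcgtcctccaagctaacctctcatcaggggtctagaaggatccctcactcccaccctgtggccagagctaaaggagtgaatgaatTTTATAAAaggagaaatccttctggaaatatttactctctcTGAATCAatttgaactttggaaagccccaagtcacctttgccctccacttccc
Ly86 (chr13:37345095-37345344, plus strand): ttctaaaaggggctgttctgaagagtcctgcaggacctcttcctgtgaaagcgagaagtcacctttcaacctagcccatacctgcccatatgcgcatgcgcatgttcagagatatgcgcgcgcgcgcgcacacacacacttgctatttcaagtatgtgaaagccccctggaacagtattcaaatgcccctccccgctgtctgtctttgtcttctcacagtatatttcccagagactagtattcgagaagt
Spp1 (chr5:104434861-104435110, plus strand): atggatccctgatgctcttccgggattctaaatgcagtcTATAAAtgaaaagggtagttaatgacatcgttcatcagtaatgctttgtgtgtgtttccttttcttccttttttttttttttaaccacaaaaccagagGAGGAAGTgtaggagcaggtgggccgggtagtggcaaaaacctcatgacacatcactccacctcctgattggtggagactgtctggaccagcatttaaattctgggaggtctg
Crybb1 (chr5:112255570-112255819, plus strand): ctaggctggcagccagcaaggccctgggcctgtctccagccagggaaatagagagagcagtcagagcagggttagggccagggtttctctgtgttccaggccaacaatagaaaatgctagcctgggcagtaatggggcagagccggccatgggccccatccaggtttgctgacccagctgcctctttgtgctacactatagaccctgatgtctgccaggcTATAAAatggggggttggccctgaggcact

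The MEF2 consensus was searched by its name in the same windows, and in the 12 promoters that RefSeq lists for 10 of the 11 lower genes it had 0 matches. It was present in 2.92% of all 32851 mouse promoters of this length and in 1.45% of the 10342 promoters of genes with a tested probe. PU.1 letters were found before the first of 2 listed Spp1 starts, 1 of the 12 promoters (8.33%). They were in 2.44% of all promoters and 2.04% of those of tested genes. TATAAA was found before Ccl9, Spp1 and Crybb1, 3 of the 12 (25%), against 12.4% and 6.43%. AP-1 letters were found before Ccl9, 1 of the 12 (8.33%), against 6.75% and 4.5%. Within these 250 bases Ly86 had none of the searched letters. A match or its absence describes these windows and shows no binding.

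Microglial genes were followed as a whole with a list of 42 core genes, of which 33 were tested. The list was written with earlier results of these data known, which had pointed to Gpr34. Its counts are therefore no independent support. In Mef2c-het mice 29 of the 33 genes were lower and 4 higher, with a median log2 FC of -0.09 beside 0.00 over all probes. Over all 10008 genes with a tested probe 47.8% were lower, as were 49.3% of all probes. With an unadjusted p under 0.05 there were 8 genes, all lower, or 24.2%, where 1.67% of all genes were called in either direction and 1.05% were called lower and 0.62% higher. On 4 genes the groups did not overlap, all of them lower, where 1.28% of all genes had no overlap, 0.709% lower and 0.57% higher. These were Ly86, Gpr34, Siglech and Mertk, the last named after its values were seen. Mertk is not among the 8, with a log2 FC of -0.09 and an unadjusted p above 0.05. After adjustment 0 genes passed in limma. Siglech, which is among the 8 and among the 4, was detected on the WT arrays alone, so that it entered the test through the WT arrays and its direction was set by the filter on dim probes. Without such genes 7 of 32 were called (21.9%), where 1.64% of all genes were, and 3 had no overlap.

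Besides Ly86 and Gpr34, the 8 genes were Trem2, Tyrobp, Fcrls, Siglech, Cd68 and Laptm5. Trem2, a lipid receptor, and Tyrobp, the adaptor through which it signals, were lower by similar amounts. Trem2 read 8.63, 8.75, 8.29 and 8.57 in WT and 8.18, 7.89, 8.30 and 8.27 in Mef2c-het mice, so that Mef2c-het replicate 4 lay just above WT replicate 5 (log2 FC -0.40, SE 0.12, exact permutation p = 0.0571). Tyrobp read 8.36, 8.91, 8.41 and 8.80 in WT and 8.41, 8.08, 8.19 and 8.39 in Mef2c-het mice (log2 FC -0.35, SE 0.14, exact permutation p = 0.143). The overlap came from WT replicates 1 and 5, which were the low WT arrays. Laptm5, a lysosomal membrane protein of blood cells, differed by -0.29, Fcrls, an Fc receptor-like protein of microglia, by -0.28 and Cd68, a lysosomal protein of macrophages, by -0.23, each with overlap of the groups. Siglech, a sialic acid-binding lectin of microglia, was detected on 4 WT arrays and on 0 Mef2c-het arrays, with log2 signals of 7.42 ± 0.06 (SD, n = 4) and 7.23 ± 0.03 (SD, n = 4). Against the lowest detected signal, its WT signal was at least 1.08-fold higher.

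Other genes of the list had smaller values. The log2 FC was -0.14 for Cx3cr1, -0.11 for Csf1r, -0.08 for P2ry12, -0.03 for P2ry13, 0.01 for Tmem119 and 0.05 for Aif1, each with an unadjusted p above 0.05. The complement genes C1qa, C1qb and C1qc had -0.06, -0.17 and -0.13. Spi1, Itgam and Ptprc were not detected on any array. The log2 FCs of the list were therefore uneven, from -0.77 for Ly86 to 0.08 for Sall1. P2ry12 (7.41 in WT, 7.33 in Mef2c-het mice) and Tmem119 (7.47 and 7.48) were near background, where signals understate differences.

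On single arrays, the mean of the 33 core genes lay at -0.04, 0.09, -0.08 and 0.04 on WT replicates 1, 4, 5 and 8, relative to the WT mean. It lay at -0.02, -0.21, -0.14 and -0.17 on Mef2c-het replicates 1, 2, 4 and 8. Mef2c-het replicate 1 lay among the WT arrays and the other 3 below all of them. The summed signal of the list on the linear scale was 12389 to 14584 in WT and 11124 to 13266 in Mef2c-het mice. In whole tissue, fewer cells of a type cannot be told apart from less RNA of these genes per cell. The number of core genes with an unadjusted p under 0.05 was 4 without WT replicate 1, 3 without WT replicate 4, 3 without WT replicate 8, 5 without Mef2c-het replicate 2 and 5 without Mef2c-het replicate 4. It was 4 in the larger array cluster alone, and 5 after median scaling and with the equal-variance test. Over all tested probes, 197 of 13382 were called without WT replicate 1 and 108 of 13358 without WT replicate 4. Without WT replicate 8 it was 444 of 13420. It was 213 of 13369 without Mef2c-het replicate 2 and 251 of 13412 without Mef2c-het replicate 4. The larger cluster had 334 of 13277 called, median scaling 75 of 13566 and the equal-variance test 328 of 13566. The median of the core list stayed between -0.21 and -0.07 under all alternatives.

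**Figure D2:**
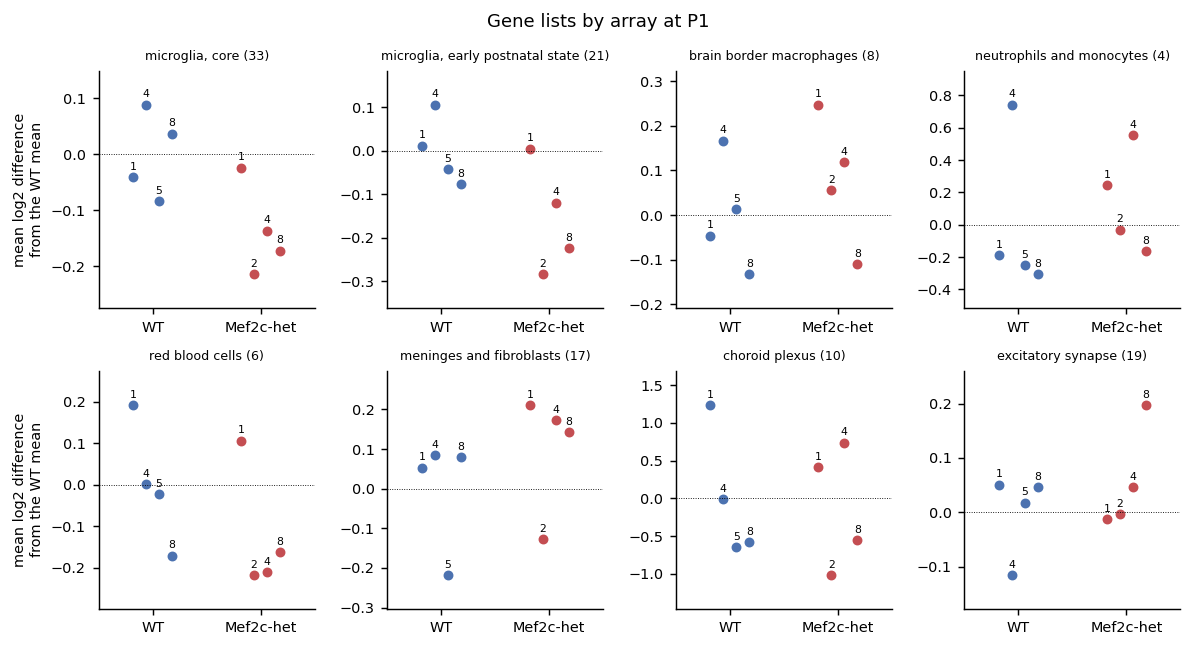
Mean log2 difference of each array from the WT mean (vertical axes, a scale of its own in each panel) over the tested genes of 8 lists, whose number is given in brackets. Points are arrays with their replicate number. For the core microglia genes Mef2c-het replicates 2, 4 and 8 lie below all WT arrays and replicate 1 does not, while the choroid plexus list spreads over more than 1 log2 unit within each group.

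A second list held 26 genes of the microglial state seen around birth, and 21 were tested. It too was written with earlier results of these data known, which had pointed to Spp1. Of the 21 genes, 15 were lower, with a median of -0.03 beside 0.00 over all probes. The 3 genes with an unadjusted p under 0.05 (14.3%, where 1.67% of all genes were called) were Spp1, Cd9 and Gpnmb. Gpnmb, a membrane glycoprotein of phagocytes, read 8.90, 9.43, 8.53 and 8.99 in WT and 8.79, 8.34, 8.16 and 8.43 in Mef2c-het mice. Its log2 FC was -0.53 (SE 0.19), and Mef2c-het replicate 1 lay above WT replicate 5 (exact permutation p = 0.0571). Igf1 had -0.21 and Lgals1 -0.17, both with an unadjusted p above 0.05. Other genes that often accompany Spp1 differed little, with 0.01 for Lgals3, 0.08 for Clec7a and 0.13 for Lpl, and Itgax and Cst7 were not detected on any array. Clec7a was near background, at 7.26 in WT and 7.34 in Mef2c-het mice, and was detected on 1 WT and 3 Mef2c-het arrays. Lpl was bright, at 13.49 in WT and 13.62 in Mef2c-het mice, and which cells gave its signal was not tested. The sign of this list's median turned with sex as a covariate (0.01), with the replicate block (0.04) and without Mef2c-het replicate 2 (0.02).

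Markers of other blood-borne and border cells were read beside these genes. For macrophages of the brain borders, 8 of 14 listed genes were tested, 2 lower and 6 higher, with a median of 0.06. Their defining markers Mrc1 (0.17), Pf4 (0.09) and Lyve1 (-0.03) were detected and had an unadjusted p above 0.05, and Cd163 was detected on 2 arrays. Their summed signal was 2194 to 2756 in WT and 2269 to 2982 in Mef2c-het mice. For red blood cells 6 of 20 genes were tested, all 6 with values below 0 and a median of -0.08, and 0 had an unadjusted p under 0.05 in limma. Their summed signal of 14136 to 15061 in WT lay within the 12023 to 17521 of Mef2c-het mice. Of 15 genes of neutrophils and monocytes, 4 were tested, and their level followed single arrays, with 0.74 on WT replicate 4 and 0.56 on Mef2c-het replicate 4 relative to the WT mean. The part of these cells in the differences of Spp1 and the microglial genes was not tested.

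Among the probes higher on every Mef2c-het array, 2 of the 12 of smallest p belong to Ms4a6d and Fcna. Ms4a6d, a 4-span membrane protein of macrophages, read 7.83, 7.92, 7.92 and 8.05 in WT and 8.54, 8.21, 8.11 and 8.30 in Mef2c-het mice (log2 FC 0.36, SE 0.10). Its second probe was dim, was detected on 1 WT and 3 Mef2c-het arrays, and gave 0.16 with overlap. Of the other 12 listed Ms4a genes only Ms4a7 was tested, with -0.01. Fcna, the lectin ficolin A, read 7.52, 7.73, 7.51 and 7.64 in WT and 7.99, 7.84, 7.94 and 7.76 in Mef2c-het mice (log2 FC 0.28, SE 0.08). It was the 1 of 8 border macrophage genes (12.5%) with an unadjusted p under 0.05, beside a list whose median was 0.06. Of all genes, 1.67% were called in either direction and 0.62% were called higher. With 1 call the count describes a single gene and not the list. On the same arrays Ly86, Cd180 and Gpr34 were lower, and these 5 genes were set side by side after their values were seen.

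**Figure D3:**
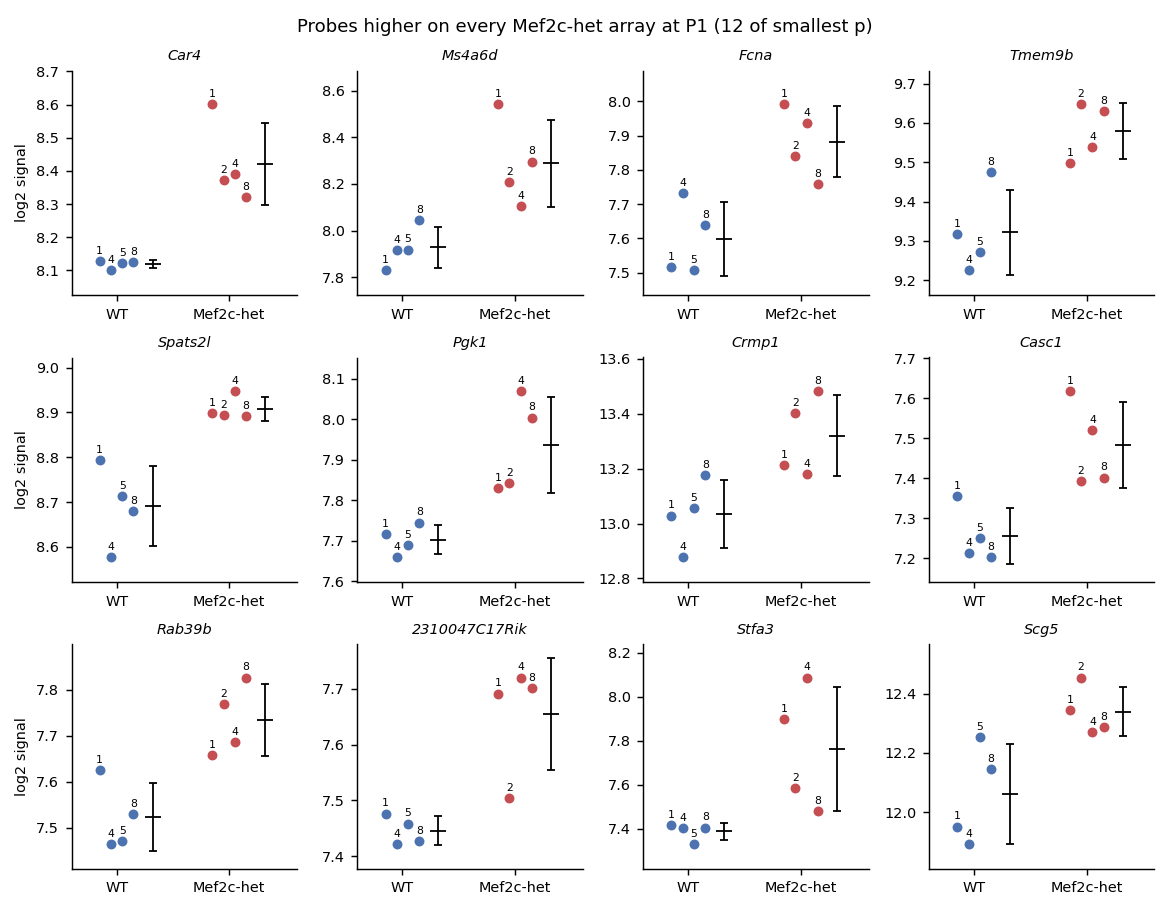
Log2 signal (vertical axes, a scale of its own in each panel) of the 12 higher probes of smallest p on the 4 WT and 4 Mef2c-het arrays at P1. Points are arrays with their replicate number, and bars show the mean and SD. In every panel the lowest Mef2c-het array lies above the highest WT array, by the least for Crmp1.

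Stfa3, a stefin A protease inhibitor of neutrophils, had the largest difference among these 12, with log2 signals of 7.33 to 7.42 in WT and 7.48 to 8.09 in Mef2c-het mice (log2 FC 0.37, SE 0.12). The stefin A genes are near-identical copies, so that a probe may read more than its own gene. Stfa1, chosen after its values were seen, spread over both groups, with 10.03 on WT replicate 4 and 9.33 on Mef2c-het replicate 4, and had 0.19 (SE 0.52). S100a8, another neutrophil gene, ran from 7.82 to 10.01 over the 8 arrays.

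Car4 encodes the membrane-bound carbonic anhydrase IV and had the smallest p of the higher probes. It was 8.12 ± 0.01 in WT and 8.42 ± 0.12 in Mef2c-het mice (mean ± SD, n = 4 each), with 8.60 on Mef2c-het replicate 1 and 8.32 to 8.39 on the others. Neuronal genes of the set were Crmp1, a collapsin response mediator of growing axons (0.29, SE 0.09), Scg5, a chaperone of neuropeptide processing (0.28, SE 0.09), and Rab39b, a vesicle GTPase (0.21, SE 0.07). The rest were Pgk1, a glycolytic enzyme (0.23), Tmem9b (0.26), Spats2l (0.22), Casc1 (0.23) and 2310047C17Rik (0.21). Casc1 was detected on 1 WT and 4 Mef2c-het arrays. The Mef2c-het arrays alone thus met the filter, which favours a higher value. All 12 higher probes kept their direction under every alternative that gave a value.

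Other probes of the same gene did not always show the same difference. Of the 23 genes behind the 24 probes, 6 had another tested probe, and for 3 of them, Gpr34, Cort and Ms4a6d, the others ran the same way. For Crmp1 the second probe had -0.05 (SE 0.13), for Tmem9b the other 2 had -0.10 and -0.04, and for Spats2l the other 2 had 0.08 and -0.03. Over all 220 probes with an unadjusted p under 0.05, 91 had another tested probe of their gene, in 60 cases all others ran the same way, and in 13 another was called too. The higher values of Crmp1, Tmem9b and Spats2l are therefore values of single probes.

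The largest differences besides Spp1, Ly86 and Ccl9 came from probes whose groups overlapped. Klc1 encodes a light chain of the motor kinesin 1. Its probe ILMN_3116826 read 9.76, 9.71, 9.60 and 10.19 in WT, and 8.02, 8.35, 9.60 and 9.45 on Mef2c-het replicates 1, 2, 4 and 8 (log2 FC -0.96, SE 0.33, exact permutation p = 0.0571). Probe ILMN_2605756 read 12.32 to 12.92 in WT and 10.97, 11.16, 12.42 and 12.39 in Mef2c-het mice (-0.82, SE 0.32). Mef2c-het replicates 1 and 2 were low, by more than 1 log2 unit, and the other 2 Mef2c-het arrays lay within or just below the WT range. The other 3 tested Klc1 probes had -0.36, -0.24 and -0.11. Ppp1r13b, which lies on the same chromosome with Xrcc3 and Zfyve21 between it and Klc1, was chosen after its values were seen. It too was low on the same arrays, with 9.03 and 9.16 on Mef2c-het replicates 1 and 2 and 9.93 to 10.56 on the other 6 arrays, while its second tested probe had a log2 FC of -0.06. Xrcc3 and Zfyve21 both had a log2 FC of -0.02.

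Ercc5, a DNA repair nuclease, had the largest positive value (1.11, SE 0.61), with 2 separate levels within each group. Its probe ILMN_2769261 was at 9.43 on WT replicate 5 and at 9.23, 9.49 and 9.36 on Mef2c-het replicates 1, 2 and 8, and at 7.12 to 7.25 on the other 4 arrays (exact permutation p = 0.229). The second Ercc5 probe had 0.03 (SE 0.09). Fam171b (0.83, SE 0.32) was at 11.56 to 11.76 on 3 Mef2c-het arrays and at 10.44 on Mef2c-het replicate 1, within the WT range of 10.05 to 11.29. Cldn11, a tight junction protein of oligodendrocytes and of the meninges, had 0.40 (SE 0.22), with Mef2c-het values of 9.59 to 10.76 that overlapped the WT values of 9.50 to 10.08. Beside it, 16 of 17 tested genes of meninges and fibroblasts had values above 0, with a median of 0.08 and 0 genes with an unadjusted p under 0.05 in limma. The summed meningeal signal was 15483 to 20343 in WT and 17068 to 22676 in Mef2c-het mice, and its part in the value of Cldn11 was not tested.

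Neuronal and synaptic genes showed few differences at this age. Of 19 tested genes of excitatory synapses, 11 of inhibitory synapses, 23 of the release machinery, 13 of GABAergic neurons and 14 of hippocampal subfields, 0 had an unadjusted p under 0.05 in limma, and the medians were 0.08, 0.04, 0.01, 0.07 and 0.03. Of 23 tested genes of neurogenesis and immature neurons, 12 were lower and 11 higher, with a median of -0.01, and Crmp1 was the 1 gene called, a share of 4.35% where 1.67% of all genes were called. Of 28 tested genes of the cell cycle and DNA replication, 1 (3.57%) was called, Cdc45, a helicase cofactor, at -0.22 without overlap of the groups. Of 28 tested genes of neuron death, 1 (3.57%) was called. This was Aifm1, a mitochondrial flavoprotein, which had -0.28 on a probe that separated the groups and -0.03 on another. Bid, a pro-apoptotic protein, separated the groups in the other direction (0.25, unadjusted p above 0.05), while its second probe had 0.01. With 1 call each, these counts describe single genes and not the lists.

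Among MEF2 factors, class IIa histone deacetylases and the kinases that act on them, 10 of 13 genes were tested, and the median was 0.00. Mef2a (-0.07), Mef2d (0.00), Hdac4 (0.03) and Hdac5 (0.04) had an unadjusted p above 0.05. Mapk14, the kinase p38 alpha that activates MEF2 proteins, was 10.19 ± 0.11 in WT and 10.43 ± 0.15 in Mef2c-het mice (mean ± SD, n = 4 each), a log2 FC of 0.23 with overlap of the groups (exact permutation p = 0.0571). Of 22 activity-regulated genes 1 was called (4.55%, where 1.67% of all genes were), Dusp6, a phosphatase of ERK, at 0.18 without overlap of the groups, while its other 2 tested probes had 0.06 and -0.02. The lists of endothelium, pericytes, oligodendrocyte lineage, astrocytes, radial glia, Cajal-Retzius cells, thalamus, striatum, muscle contractile genes, interferon response, complement, hypoxia response and choroid plexus had 0 genes with an unadjusted p under 0.05 in limma. The choroid plexus list had a median of -0.09 beside summed signals of 7926 to 38297 in WT and 3537 to 31101 in Mef2c-het mice.

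**Figure D4:**
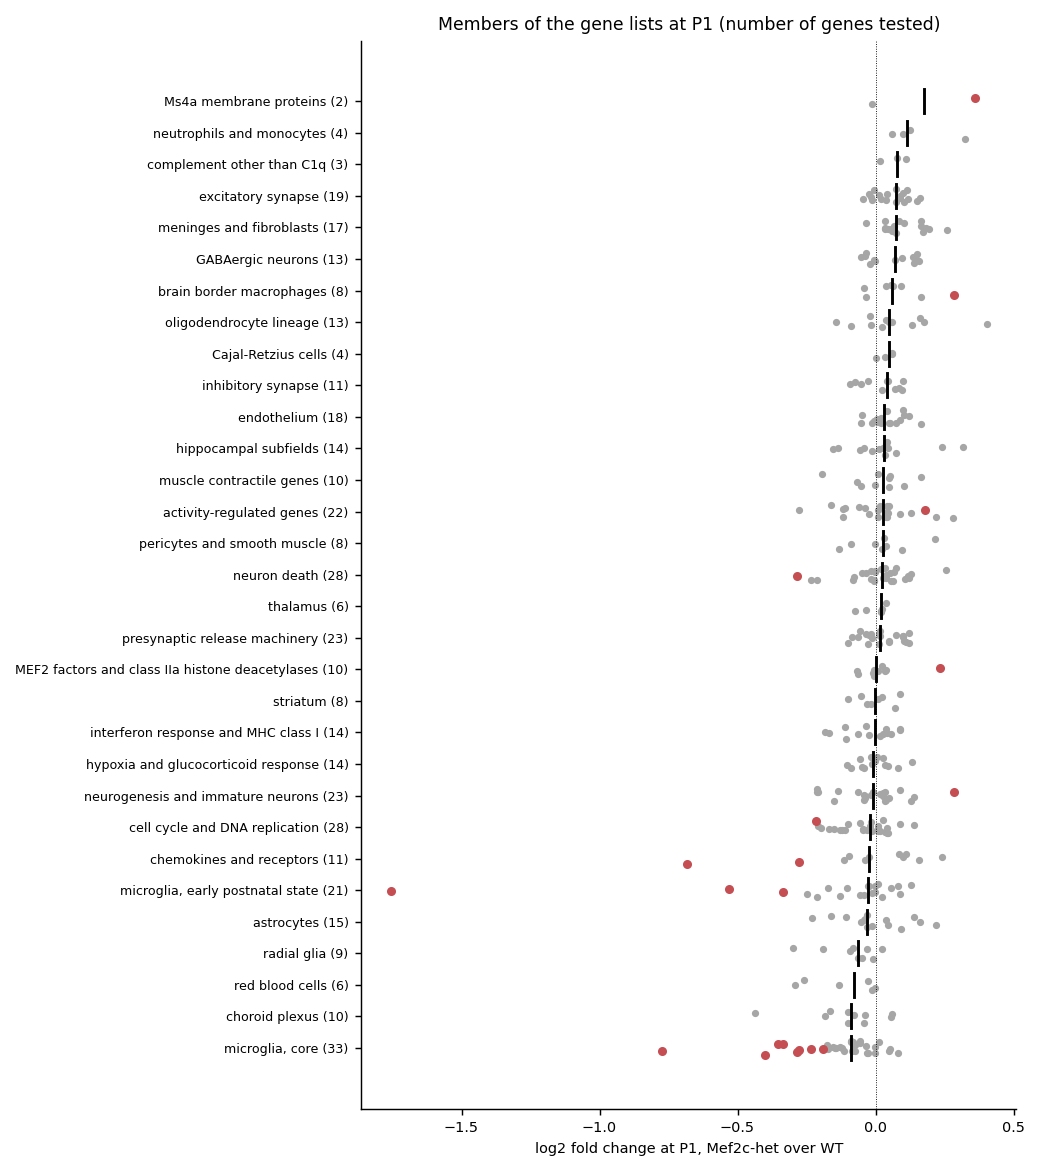
Log2 FC at P1 (horizontal axis, Mef2c-het over WT) of the tested genes of 31 lists, 1 probe per gene. Grey points are genes with an unadjusted limma p above 0.05, red points are those under it, and black bars are list medians. Red points lie mainly on the left of the core microglia, early microglia and chemokine lists.

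Genes close to Mef2c on chromosome 13 were read because a segment of the chromosome can travel with the allele. Within 10 Mb of Mef2c, 0 of 42 tested probes (34 other genes) had groups without overlap or an unadjusted p under 0.05 in limma. Over the whole chromosome, which also holds Ly86 and Cd180, 9 of 451 probes (2%) had an unadjusted p under 0.05, where 1.62% of all probes did.

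The same comparison was made in other mice at P30. Of the 220 probes called at P1 without adjustment, 209 were tested at P30, and 80 of them (38.3%) had the same direction there, where 46.5% of all 12594 probes tested at both ages did. Pearson's r of the log2 FCs across these 12594 probes was -0.08, which describes probes and not independent replicates. At P30, 2.36% of 13413 tested probes had an unadjusted p under 0.05 and 1.75% had no overlap. Of the probes without overlap at P1, 158 were tested at P30. On 4 of these 158 probes the groups were apart in the same direction at both ages. They were probes of Ccl9, Gpr34, Ms4a6d and Ntpcr, the last chosen after its values were seen. At P30 the log2 FC was -0.76 for Ccl9, -0.20 for this Gpr34 probe and 0.38 for this Ms4a6d probe. The second probe of Gpr34 had -0.11 and that of Ms4a6d 0.13 at P30, both with overlap of the groups. On 3 probes, those of Adam23, Togaram2 and Steap2, of which the first 2 were chosen after their values were seen, the groups were apart in opposite directions.

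Whether the genotype effect differed between P1 and P30 was tested on 14777 probes over all 16 arrays, and 0 probes had an adjusted p under 0.05 in limma, with 438 (2.96%) under 0.05 without adjustment. The probes more negative at P1 with the smallest p were Ly86 (-0.73, SE 0.16), Spp1 (-2.04, SE 0.46), Dap (-0.49, SE 0.12), Trim29 (-0.30) and Bex2 (-0.34). Those more positive at P1 were Kcnma1 (0.51, SE 0.11), which encodes the BK potassium channel, Steap2 (0.33), Cyfip1 (0.29), a regulator of actin and translation, Pcgf6 (0.37) and Myl1 (0.79). The adjusted p was 0.998 for each of them in limma. Trim29 was not tested at P1, where it was detected on 1 WT and 0 Mef2c-het arrays, and it had 0.19 at P30. Myl1 had 0.17 (SE 0.14) at P1, with its highest signal of 8.02 on Mef2c-het replicate 2, and -0.62 (SE 0.15) at P30. Ly86 and Spp1 had log2 FCs of -0.03 (SE 0.10) and 0.28 (SE 0.24) at P30. For the core microglia list the median was -0.09 at P1, with 29 of 33 genes lower, and 0.07 at P30, with 8 of 33 lower.

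**Figure D5:**
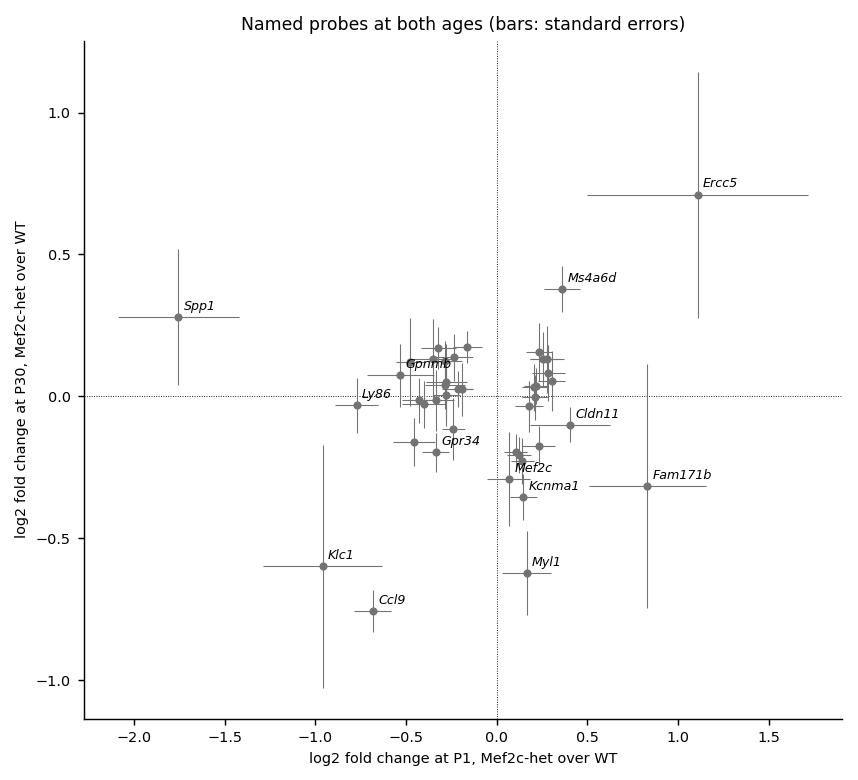
Log2 FC, Mef2c-het over WT, of the named probes at P1 (horizontal axis) and at P30 (vertical axis), 1 probe for each of 42 genes. Bars are standard errors. Ccl9 and Gpr34 are negative and Ms4a6d is positive at both ages. Spp1 has -1.76 at P1 and 0.28 at P30, and Ly86 has -0.77 and -0.03. For neither of these genes did the difference between the ages pass adjustment in limma.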

How the data were processed

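The deposited table holds, for each probe and array, the mean bead intensity, a detection p-value, the bead standard error and the bead count, not normalized between arrays. The study's methods, which describe the P30 arrays, give log2 transformation and quantile normalization, and the submitters' processing notes name limma and lumi without versions. The genome build behind the probes is not given in the sources used here. From the deposited intensity, log2 values of the 8 P1 arrays were quantile normalized and fitted with limma 3.58.1 in R 4.3.3 (lmFit and eBayes, two-sided, Benjamini-Hochberg), over the 13566 probes that 4 or more arrays detected at p under 0.05. The exact permutation p of a probe is from all 70 ways to assign 4 of 8 arrays. All 16 arrays were fitted together for the difference between the ages.

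Of 25697 probes, 25376 were named through the RefSeq gene table of GRCm38.p6. A gene in a list is its brightest tested probe. Genes were named by rule: Mef2c, probes past the adjusted threshold, the 12 lower and 12 higher non-overlapping probes of smallest p, the 5 largest falls and rises, list members with an unadjusted p under 0.05, the 5 probes in each direction that differed most between the ages, and Ccl9, Spp1, Gpr34 and Ms4a6d. The arrays, lists and these genes were chosen with earlier results of these data known. The scripts were tested on simulated data.

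The number of arrays limits the precision. Alternatives were normexp, median scaling, cyclic loess, a detection limit of 0.01 or none, 1 probe per gene, trend and robust variances, an equal-variance test, sex, the replicate number or array cluster as a block, the larger cluster, all 16 arrays, and leaving out each array. The chips are not named in the columns, so a chip block was not run.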

Additional observations from a re-analysis of the deposited data

Results flagged for a closer look

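Among 102 sets of 4 arrays (1 group on 1 named probe), 7 had a single array at a distance from the rest, and about 5.1 such sets come by chance. The gap to the nearest array, as a share of the range of the group, was 0.871 for Ly86 in WT (replicate 4 at 9.67, the next at 9.25) and 0.839 for Stfa3 in WT (replicate 5 at 7.33, the next at 7.40). It was 0.875 for Spats2l in Mef2c-het mice (replicate 4 at 8.95, the next at 8.90), 0.866 for 2310047C17Rik (replicate 2 at 7.50, the next at 7.69) and 0.846 for Fam171b (replicate 1 at 10.44, the next at 11.56). For Ercc5 it was 0.965 in WT (replicate 5 at 9.43, the next at 7.20) and 0.886 in Mef2c-het mice (replicate 4 at 7.25, the next at 9.23).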

How the results depend on the processing

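The number of probes with an unadjusted p under 0.05, 220 as reported, was 75 with median scaling, 654 with no filter, 337 with all 16 arrays together, 426 with the array cluster as a block and 334 in the larger cluster alone, and ran from 108 to 444 when single arrays were left out. With the replicate number as a block it was 949. The numbers were not taken to pair the arrays, since the deviations of same-numbered arrays correlated at 0.09, 0.40 and 0.83 for numbers 1, 4 and 8. Probes with an adjusted p under 0.05 in limma were 3 with the replicate block (Ccl9, Ly86 and Spp1), 2 with all 16 arrays together (Ccl9 and Ly86), 1 with the array cluster as a block and 1 in the larger cluster alone (Spp1 in both), and 0 in the other settings. Probes without overlap, 175 as reported, were 116 with median scaling, 486 with no filter and 927 in the larger cluster alone, and 281 to 599 when single arrays were left out, where fewer arrays have to separate. For the difference between the ages, probes with an unadjusted p under 0.05, 438 as reported, were 224 with median scaling, 906 with no filter and 723 with the replicate block, and 288 to 741 when single P1 arrays were left out, while 0 passed adjustment in limma in any setting. Of 51 named probes 49 kept their direction in every setting. The exceptions were the Mef2c probes. ILMN_2887992 gave -0.016 in the larger cluster alone and ran from -0.045 without Mef2c-het replicate 8 to 0.16 without Mef2c-het replicate 1. ILMN_2732465 gave 0.00023 with the replicate block, 0.011 and 0.028 without WT replicates 5 and 8, and ran from -0.079 to 0.12 without single Mef2c-het arrays. Calls were lower in 62.7% of cases as reported, but in 46.0% with the replicate block. The share was also 46.4% without WT replicate 8 and 46.9% without Mef2c-het replicate 2. In the other settings it ran from 54.6% without WT replicate 4 to 70.8% with sex as a covariate. The core microglia median was -0.21 with normexp. Signals near background, as for Cd180, Siglech and Crybb1, understate differences and limit their precision.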

Other observations

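Several probes had 2 separate levels across the 8 arrays. On 43 of the 13566 tested probes the 8 sorted signals had a gap of more than 1 log2 unit with at least 2 arrays on each side. For 34 of them the low arrays were WT replicate 8 and Mef2c-het replicate 8, as for Stmn1 (9.97 against 11.94) and Celf2 (9.85 against 11.69). The rest included Xist, Aqp1 of the choroid plexus, Ercc5, 2 probes of Klc1, Defb11 and 4930555G01Rik, the last with means of 7.11 on 3 arrays of both groups and 9.08 on the other 5. On the 2 Klc1 probes both low arrays were Mef2c-het. These probes were chosen after their values were seen.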
